A study of Mus musculus with 21 samples.

Results

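Open chromatin was mapped after induction of Sox7 in mouse embryonic stem cells undergoing differentiation, in the cells sorted as PDGFRalpha-FLK1+, the endothelial progenitors of the series' design text (EPC here). These are 4 of the 21 samples: 2 induced EPC libraries, from EBs (embryoid bodies, floating aggregates in which mesoderm forms) given 1 µg/ml doxycycline for 24 h, and 2 uninduced EPC libraries from EBs given none. All came from the line A2lox-Sox7-Myc, derived from E14Tg2a, which carries a Myc-tagged Sox7 gene that doxycycline switches on, so the uninduced cells carry the transgene too. EBs were collected at day 4. The question the comparison addresses is which chromatin opens or closes in these progenitors within 1 day of Sox7 induction. Other samples used below are the 4 ATAC-seq libraries of PDGFRalpha+FLK1+ cells (CPC, the cardiac progenitors of the design text), 2 of them induced and 2 uninduced, and the anti-Myc ChIP-seq libraries of unsorted day 4 EBs. Doxycycline was added before the sort, so the mix of cells inside the gate may differ between induced and uninduced EBs; this was not measured here. The labels do not say how many clones of the line were used, and a line without the transgene given doxycycline was not analysed here. A growth protocol text speaks of sorting PDGFRα+FLK1− cells, which matches the purification label of no ATAC-seq sample; the groups follow those labels.

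Sox7 belongs with Sox17 and Sox18 to the SOXF transcription factors, whose HMG box binds short AT-rich sequences such as AACAAT and bends the DNA there. SOXF factors act in endothelial cells, where they take part in arterial specification and vessel growth, and Sox7 and Sox17 are also active in primitive and visceral endoderm. FLK1, the product of Kdr, is the main VEGF receptor of endothelial cells and appears in mesoderm before blood, vessel and heart lineages part. ATAC-seq marks open chromatin by where a transposase can insert, so a peak stands for DNA that is accessible in a fair share of the sorted cells. More cells with an open site and a more open site per cell cannot be told apart in such bulk samples.

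Peaks of the 4 EPC lists were merged wherever they overlapped by 1 bp, which gave 40258 EPC regions on GRCm38. A region is called gained if each induced list has a peak in it and no uninduced list has, and lost in the reverse case. Each peak has the authors' score, which in the format of their peak caller is the negative log10 of its p-value times 10, and every list starts at a score of about 50. A missing peak is given below as a score of 0, meaning only that no peak was called.

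The promoters of 174 RefSeq windows overlapped a gained region, and the sequences here are those of gene list members (Sox1, Lamb1 and Cnn1) and the 2 of the 8 highest-scoring gained promoters that hold a SOX-type word (Tfpi and Myt1). Each is the 250 bases before a start of the gene, 5′ to 3′ on the gene's strand, from RefSeq on GRCm38.p6. Base numbers count from that start. The outer boundary of Lamb1 (31265146) and that of Cnn1 (22099221) lie inside the printed window, so part of these bases is within the gene. Capitals mark AACAAT or its reverse complement ATTGTT. The positions are chr2:84474175-84474424, minus strand for Tfpi, chr2:181763082-181763331, plus strand for Myt1, chr9:22099003-22099252, plus strand for Cnn1, chr12:31265043-31265292, plus strand for Lamb1 and chr8:12395269-12395518, plus strand for Sox1.
Tfpi: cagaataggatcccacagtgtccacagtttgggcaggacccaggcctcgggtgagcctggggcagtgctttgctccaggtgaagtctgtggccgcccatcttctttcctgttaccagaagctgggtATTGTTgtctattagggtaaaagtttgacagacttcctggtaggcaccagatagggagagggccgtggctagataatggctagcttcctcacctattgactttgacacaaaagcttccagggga
Myt1: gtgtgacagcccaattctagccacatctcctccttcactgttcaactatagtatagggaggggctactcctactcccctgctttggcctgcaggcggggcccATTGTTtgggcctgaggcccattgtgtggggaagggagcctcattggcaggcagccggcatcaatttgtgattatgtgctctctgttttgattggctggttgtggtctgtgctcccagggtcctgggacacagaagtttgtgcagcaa
Cnn1: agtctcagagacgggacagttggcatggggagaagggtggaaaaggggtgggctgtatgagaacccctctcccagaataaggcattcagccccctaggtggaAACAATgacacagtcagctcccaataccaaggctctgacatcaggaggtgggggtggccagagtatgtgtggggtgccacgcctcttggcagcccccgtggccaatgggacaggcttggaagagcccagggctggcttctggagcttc
Lamb1: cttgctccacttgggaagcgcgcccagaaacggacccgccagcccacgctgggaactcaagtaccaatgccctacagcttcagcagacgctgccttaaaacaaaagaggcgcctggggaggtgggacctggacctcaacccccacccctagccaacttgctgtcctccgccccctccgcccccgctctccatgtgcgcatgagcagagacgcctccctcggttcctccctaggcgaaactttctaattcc
Sox1: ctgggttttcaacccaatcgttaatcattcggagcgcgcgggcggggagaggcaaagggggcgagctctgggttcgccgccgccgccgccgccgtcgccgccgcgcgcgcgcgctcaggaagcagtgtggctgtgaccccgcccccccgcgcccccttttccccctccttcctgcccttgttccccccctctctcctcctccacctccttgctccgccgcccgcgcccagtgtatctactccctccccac
The word begins at base -124 of Tfpi and at base -148 of Myt1, on the strand opposite to the gene in both, and at base -148 of Cnn1 on the gene's own strand. Lamb1 and Sox1 have neither AACAAT nor ACAAAG on either strand of the 250 bases.

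The induced EPC lists held 28915 and 30732 peaks, against 27934 and 23694 in the uninduced EPC lists (29824 ± 1285 and 25814 ± 2998, SD, n = 2 each). The groups did not overlap, but 2 against 2 libraries cannot give a two-sided exact permutation p below 0.333, which is the p found (adjusted p = 0.667 over 4 measures per library). Median peak width was 895 and 925 bp in induced libraries, against 955 and 877 bp in uninduced libraries, so these groups overlapped (exact permutation p = 1.00). Read depth is unknown, as the lists hold no read counts, and uninduced replicate 2 had the fewest peaks and the lowest median score, 138.4, against 149.3 to 161.1 in the other 3 EPC lists. Its part in the counts below was not tested beyond the alternatives given with them.

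The labels were checked first. Kdr had a region inside the gene (chromosome 5, 75961649 to 75963085) that scored 887.5 and 755.4 in induced and 1010.8 and 415.3 in uninduced EPC libraries, against at most 105.6 in the CPC libraries, where 3 of 4 had no peak. The region over the upper boundary of Kdr (75977637 to 75979143) scored 212.6 and 250.3 in induced and 394.4 and 117.9 in uninduced EPC. It had a peak in every CPC library too, at 207.4 and 97.4 in induced and 55.4 and 88.7 in uninduced CPC. CPC were also sorted as FLK1+, so Kdr is no marker of the EPC gate against the CPC gate. No region assigned to Kdr was gained or lost. Pdgfra, whose product the sort selected against, also kept a region inside the gene (chromosome 5, 75155393 to 75156890) with scores of 161.2 and 237.8 in induced and 282.0 and 119.8 in uninduced EPC. In CPC, sorted as positive for this receptor, it scored 367.1 and 271.6 in induced and 463.2 and 63.2 in uninduced libraries. An open site is not surface protein, and these lists do not test the sort itself. EPC regions were assigned to 20 of 23 endothelial surface genes, but also to 20 of 21 blood, 22 of 24 cardiac, 18 of 21 endoderm, 14 of 17 pluripotency and 11 of 12 neural genes, so having a region does not set these cell types apart.

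At Sox7 (chromosome 14, 63943706 to 63950732), the region inside the gene at 63947488 to 63948950 was gained. It scored 170.2 and 209.8 in the induced EPC libraries and had no peak in the uninduced ones, and the CPC libraries gave 81.9 and 61.6 when induced and no peak when uninduced. DNA of the gene and DNA of the transgene cannot be told apart at this region. The other Sox7 regions had a peak in all 4 EPC libraries. One of them, 6.71 kb outside the gene, scored 262.8 and 360.5 in induced and 523.8 and 494.6 in uninduced EPC, so its scores were lower in both induced libraries.

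Sox7 induction was followed by more gained than lost regions in EPC. Gained regions numbered 3158 of 40258 (7.84%), lost regions 943 (2.34%), and 17349 (43.1%) had a peak in all 4 libraries. The size of the excess differed between settings. With each list cut to the 23694 highest-scoring peaks, the length of the shortest, 1947 regions were gained and 1363 lost. With a score of 100 or more asked of every peak, the counts were 1786 gained and 423 lost. Leaving out a library relaxes the rule and enlarges every count: without induced replicate 1 there were 7199 gained and 1650 lost, without induced replicate 2 5903 and 1862, and without uninduced replicate 1 5616 and 2425. Without uninduced replicate 2, the shortest list, 3926 were gained and 4100 lost, so the excess of gained regions did not hold there. The state that loses a library needs a peak in only 1 list, and the other state in 2. These counts therefore do not weigh the directions evenly. With uninduced replicate 2 left out, a peak in uninduced replicate 1 alone counts as lost, a pattern that 3142 regions had.

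**Figure D1:**
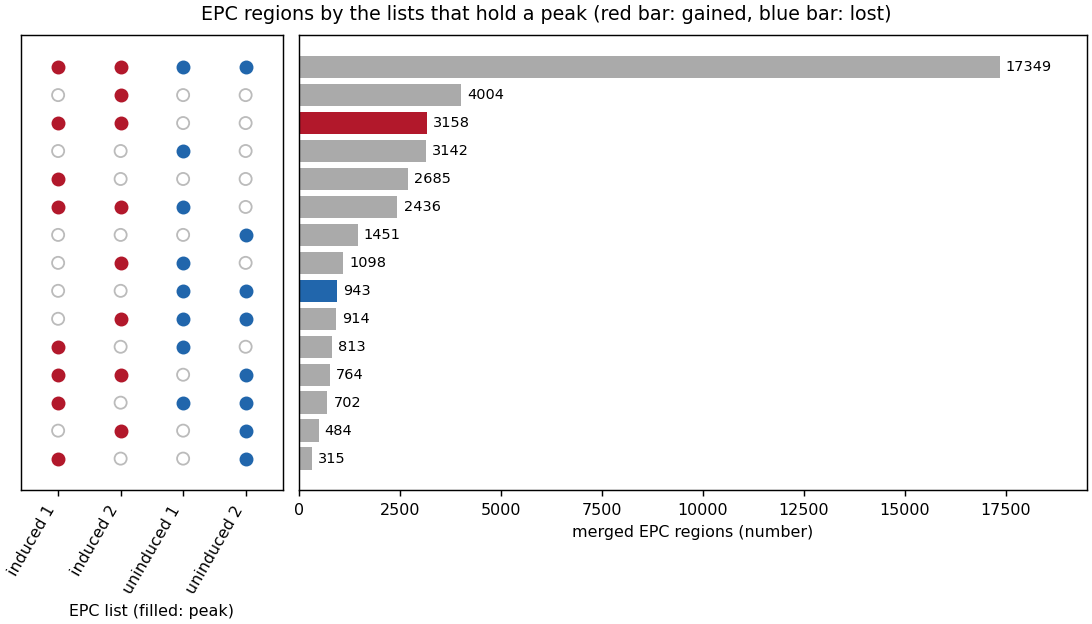
Number of merged EPC regions (horizontal axis) for each of the 15 patterns of peaks over the 4 EPC lists; filled dots on the left mark the lists with a peak. The pattern with both induced lists alone holds 3158 regions, the one with both uninduced lists alone 943, and those with a peak in a single list 2685 (induced replicate 1), 4004 (induced replicate 2), 3142 (uninduced replicate 1) and 1451 (uninduced replicate 2).

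Most gained regions were weak, and the stronger ones were more numerous than strong lost regions. The lower of the 2 induced scores had a median of 71.8 over gained regions, with quartiles of 58.1 and 101.6 and a highest value of 903.8. For lost regions the lower of the 2 uninduced scores had a median of 61.2, with quartiles of 55.4 and 74.8 and a highest value of 242.3. In all, 813 gained regions (25.7%) and 69 lost regions (7.32%) reached 100 in both of their libraries. These values come from the rule and are a description. Scores of uninduced replicate 2 run lower than those of the other lists, which lowers the lost scores, so ranks within lists were also used. Among the 15000 highest-ranked peaks of both libraries, with no peak of the other state in equal-length lists, 401 regions were gained and 120 lost. Among the 10000 highest-ranked, 72 were gained and 4 lost, and this choice of ranks was made after seeing the data. The rank counts rest on the same scores and presence rule, so they too are a description. They do not account for how far the 2 libraries of a state agree, which is given next. Scores of the same gained region in the 2 induced libraries had a Spearman rho of 0.54 across 3158 regions, and those of lost regions in the uninduced libraries a rho of 0.18 across 943; regions with a peak in all 4 gave 0.93 and 0.90.

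Gained and lost regions lay away from gene boundaries. A boundary of a protein-coding gene was within 1 kb of 9.53% of gained and 10.8% of lost regions, against 54.4% of regions open in all 4 libraries and 32.0% of all EPC regions. These constantly open regions scored higher, with a median lower induced score of 276.4 against 71.8 for gained ones. At lower induced scores of 50 to 60 the share was 12.2% of gained and 25.5% of constantly open regions. At 200 and above it was 4.38% and 65.1%, in a split chosen after seeing the data. Inside a gene lay 49.8% of gained, 52.4% of lost and 76.1% of constantly open regions. No protein-coding gene was within 50 kb of 22.2% of gained regions, 18.0% of lost and 8.05% of constantly open ones. Median width was 868 bp for gained, 832 bp for lost and 1308 bp for constantly open regions, and widths were not compared at equal scores. By chromosome, Y left out, the gained share ran from 6.74% on chromosome 7 to 8.77% on chromosome 13, and the lost share from 1.47% on chromosome 19 to 3.08% on chromosome 5.

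The 12 highest-scoring gained regions were led by one inside Tiam1, which encodes an activator of the small GTPase Rac (chromosome 16, 89862899 to 89864065). It scored 903.8 and 1015.5 in induced EPC, with no peak in uninduced EPC, and 219.8 and 164.4 in induced CPC, with no peak in uninduced CPC. Next came a region 41.6 kb from Adamts18, a secreted metalloproteinase (729.0 and 711.8 in induced EPC), and a region inside Nav2, a neuron navigator gene (699.6 and 648.4). Dock2, another Rac activator and one known from blood cells, had a gained region inside the gene (chromosome 11, 34738676 to 34739762) at 570.0 and 586.8 in induced EPC and 282.7 and 317.9 in induced CPC, with no peak in uninduced cells of either kind. Regions inside Tmem132d (638.2 and 880.2) and Rell1 (605.7 and 718.6), 23.6 kb from the imprinted gene Peg10 (581.6 and 643.2) and inside Ndst4, an enzyme that modifies heparan sulfate (432.2 and 528.0), were also among the 12, with those at Spty2d1, Agbl4 and Rasd2 and 1 without a gene within 50 kb. Of the 12, 9 had a peak in at least 1 induced CPC library, and none had one in an uninduced CPC library. The Nav2, Agbl4 and Rasd2 regions had no CPC peak in any library. Of the regions named here, those at Peg10 and Dock2 had peaks in 3 induced ChIP libraries and that of Tmem132d in 2. Those at Adamts18, Nav2, Rell1, Agbl4, Rasd2 and Ndst4 had no ChIP peak. Some of these genes had lost regions as well, 1 each at Tiam1, Dock2, Agbl4 and Tmem132d and 2 at Nav2.

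Lost regions were topped by one on chromosome 10 without a gene within 50 kb (120685780 to 120686760), with no peak in induced EPC and 242.3 and 285.6 in uninduced EPC. A region inside Cdkal1, a tRNA-modifying enzyme, scored 238.9 and 228.2 in uninduced EPC, and one 2.61 kb from Xirp2, an actin-binding gene of striated muscle, 217.7 and 204.2. Spns2, the transporter that exports sphingosine-1-phosphate from endothelial cells, lost a region inside the gene at 267.3 and 190.4 in uninduced EPC (chromosome 11, 72457831 to 72459033). Both directions occur at some of these genes: Spns2 had 2 lost and 1 gained region, Cdkal1 1 lost and 3 gained, and Xirp2 1 of each. The other 8 of the 12 lay near Sim2, Rab27b, Car10, Aplnr and H3f3b or had no gene within 50 kb. Car10 had 2 lost regions and 1 gained, and Aplnr 1 of each. The lost region 1.06 kb from H3f3b is the only lost region that overlaps the authors' Sox7 list; it has a peak in 2 induced ChIP libraries and also in 1 uninduced one.

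Several genes gathered more than a single gained region. Agbl4, a tubulin-modifying carboxypeptidase gene of 1267 kb, had 7 gained and 1 lost of 26 regions, and Macrod2 (1998 kb) 6 gained of 28. Adamts18 had 4 gained of only 5 regions, with scores of 52.1 to 729.0, and Kif26b and Pcdh9 each had 4 of 7. The most lost regions were counted at Gm7592, with 6 lost of 31. Long genes hold more regions, and no adjustment for length was made.

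**Figure D2:**
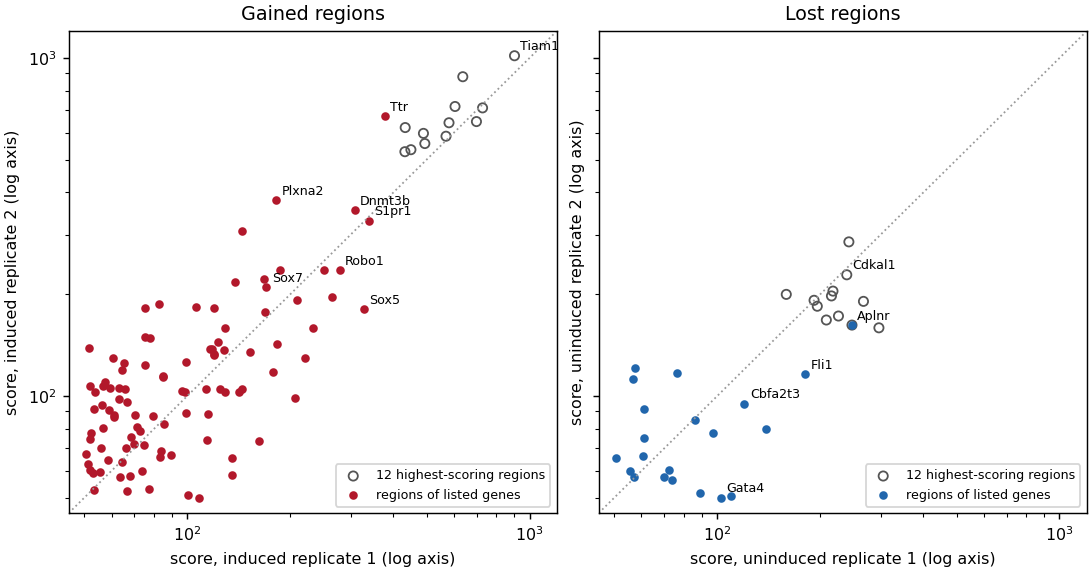
Peak scores in replicate 1 (horizontal) and replicate 2 (vertical), on log axes, of gained regions in the induced EPC lists (left) and of lost regions in the uninduced EPC lists (right). Filled points are regions of listed genes, open circles the 12 highest-scoring regions. Gained regions reach 903.8 and 1015.5 at Tiam1, and no plotted lost region scores above 296.6.

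A gained region was assigned to 2092 of 21883 protein-coding genes (9.56%) and a lost region to 731 (3.34%), counting the genes a region overlaps or, failing that, the nearest within 50 kb; 178 genes had both. Of the 15946 genes with any EPC region, these are 13.1% and 4.58%. Over the 318 genes of 17 lists, 79 had a gained and 20 a lost region. Listed genes have more regions, with a median of 3 against 1 for all genes, so shares of regions are the fairer measure: 100 of 1115 regions of listed genes were gained (8.97%), against 7.06% of the regions assigned to any gene, and 21 were lost (1.88%), against 2.22%. The scores of the 100 gained regions ran from 50.0 to 377.7 by the lower of the 2 libraries, with a median of 73.8, and 34 reached 100. With equal-length lists, 44 of the 79 genes with a gained region were still among those called, and 13 of the 20 with a lost region.

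The SOX genes were among the lists with the highest gained share, 11 of 59 regions (18.6%), at 7 of 19 genes. Without Sox7 and its regions this was 10 of 56 (17.9%), at 6 of 18 genes, and with equal-length lists 8 of 46 (17.4%), where 5.19% of all genes' regions were gained. None of the gained regions lay at Sox17 or Sox18, the other SOXF genes. Sox5 and Sox13, SOXD factors without a transactivation domain of their own, had 3 gained regions each. Inside Sox5 (chromosome 6), the region at 144480571 to 144481883 scored 327.8 and 180.7 in induced EPC and none in uninduced, and 269.3 and 130.2 in induced CPC and none in uninduced. A neighbouring Sox5 region, 144454203 to 144455159, scored 232.6 and 158.4 in induced EPC and had peaks in 3 of 4 induced ChIP libraries. Sox5 also had a lost region, with scores of 61.0 and 74.8 in uninduced EPC. The region inside Sox13 at 133397482 to 133398433 of chromosome 1 scored 105.7 and 183.3 in induced EPC, and all 4 induced ChIP libraries had a peak there. Sox1, a neural SOXB gene, was gained at its promoter, with 182.6 and 142.2 in induced EPC and no peak in any other ATAC list. Sox6, Sox11 and Sox15 had weak gained regions, the lower score of each between 63.1 and 72.5.

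Receptors and ligands of the VEGF, angiopoietin, apelin and sphingosine-1-phosphate pathways had 8 gained of 84 regions (9.52%), at 8 of 19 genes, and 2 lost (2.38%). The strongest lay 30.5 kb from S1pr1, the main sphingosine-1-phosphate receptor of endothelium (chromosome 3, 115678939 to 115679925), with 339.9 and 329.6 in induced EPC and no peak in uninduced EPC. CPC showed the same order at this region, 122.4 and 77.5 in induced and no peak in uninduced libraries. Nrp2, a VEGF-C co-receptor, had 120.0 and 181.4 inside the gene. Flt4, the lymphatic VEGF receptor, had 75.1 and 123.2 at 2.67 kb, and Tek, the angiopoietin receptor, had 85.1 and 113.8 at 12.8 kb. At Flt1, the decoy-like VEGF receptor, one region inside the gene was gained (128.9 and 102.9 in induced EPC) and another lost (96.9 and 77.7 in uninduced EPC), 83.0 kb apart. Aplnr, the apelin receptor of early mesoderm, had a gained region 20.2 kb away at 122.7 and 143.9 in induced EPC. In CPC that region scored 219.5 and 192.0 in induced libraries, against 201.2 and no peak in uninduced ones, so it was open in an uninduced CPC library as well. Aplnr also had a lost region 23.2 kb away at 247.4 and 162.0 in uninduced EPC, with 1.95 kb between the regions. The lost Aplnr region still had peaks in all CPC libraries, at 82.3 and 70.7 in induced CPC and 304.6 and 217.8 in uninduced CPC, so its scores were lower in both induced libraries there too. The Apln ligand gene had a weaker gained region (55.8 and 69.9), as had Apela, a further ligand of Aplnr (51.7 and 138.7).

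Surface and junction genes of mature endothelium had 3 gained of 75 regions (4.00%) and 2 lost (2.67%), where 7.06% and 2.22% of all genes' regions were, so counts this small are no result about the list. Eng, a TGF-beta co-receptor, had 60.5 and 129.0 in induced EPC, Vwf 61.1 and 86.4, and Tspan18 127.6 and 136.4. Cdh5, which encodes VE-cadherin, lost a region inside the gene that scored 60.5 and 66.5 in uninduced EPC, and Stab1 one over its promoter at 61.2 and 91.6; neither had a CPC peak. With equal-length lists 2 of 63 regions were gained and 1 lost; of the genes named here only Tspan18 kept its call, and Eng, Vwf, Cdh5 and Stab1 had none.

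Endothelial transcription factor genes had 8 gained of 92 regions (8.70%), at 6 of 20 genes, and 3 lost (3.26%). The ETS genes went both ways. Ets1 gained a pair of regions inside the gene: 32675869 to 32677124 of chromosome 9 scored 220.2 and 129.3 in induced EPC, and 32692372 to 32692945 scored 128.8 and 159.2 with peaks in 3 induced ChIP libraries. Erg had a gained region at 113.5 and 104.9, and Etv6, a repressor of the same family, one at 144.1 and 308.0. Fli1, which lies beside Ets1 on chromosome 9, lost a region over its upper boundary (32542838 to 32543797; no peak in induced EPC, 138.6 and 79.9 in uninduced EPC) and another 38.2 kb outside it (32581678 to 32582866; 180.9 and 116.0 in uninduced EPC). Neither Fli1 region had a peak in any CPC or ChIP library, and both were also lost with equal-length lists. Mef2c lost a weak region, at 89.2 and 51.5 in uninduced EPC.

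Notch and arterial genes had 8 gained of 69 regions (11.6%) and none lost. Hey2, an effector of Notch in arteries, had a region 5.69 kb away at 177.6 and 117.5 in induced EPC, with a peak in 2 induced ChIP libraries. Notch1 had 124.2 and 104.7 and a weaker one at 51.8 and 60.3, both inside the gene. Efnb2, an arterial ephrin, Unc5b, Lfng and Rbpj, the DNA-binding partner of Notch, had lower induced scores of 52.4 to 75.0. With equal-length lists, 3 of 56 regions were gained (5.36%), close to the 5.19% of all genes' regions. Vessel guidance genes had 9 of 131 gained (6.87%), led by Robo1, a Slit receptor (278.7 and 235.5 in induced EPC), Plxna2, a semaphorin receptor (182.0 and 379.8), and Sema3a (168.1 and 176.5 at 26.4 kb), and 1 lost, at Robo2. With equal-length lists 5 of their 105 regions were gained and 6 lost, so the excess of gained regions did not hold there.

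Genes of the endoderm list had 13 gained of 64 regions (20.3%), at 8 of 21 genes, and 1 lost (1.56%); with equal-length lists the counts were 10 of 49 (20.4%) and 1. Ttr, the transthyretin gene of visceral endoderm and liver, had the highest score of any listed gene, 377.7 and 673.8 in induced EPC with no peak in uninduced EPC, and 982.5 and 637.1 in induced CPC, against 69.3 and no peak in uninduced CPC. This Ttr region had peaks in 3 induced ChIP libraries. Foxa2, a pioneer factor of endoderm, had 3 gained regions on chromosome 2, at 1.37, 5.53 and 18.6 kb from the gene. The one at 148040382 to 148041503 scored 137.9 and 217.8 in induced EPC and 266.2 and 225.4 in induced CPC, with no peak in uninduced cells of either kind. Another 4 of the 8 encode basement membrane proteins, some of which endothelium makes as well, and Lrp2 had a weak region at 55.4 and 59.5. Lamb1 had its promoter (119.3 and 133.2) and a region 17.8 kb away (209.3 and 192.0), Lamc1 a region 25.4 kb away (250.7 and 236.3), and Lama1 one at 82.7 and 187.5. The outlying Lamb1 region and the Lamc1 region each had peaks in 2 induced ChIP libraries, and the Lamb1 promoter and the Lama1 region had none. Col4a1 had a gained region inside the gene at 99.1 and 125.7, with peaks in all 4 induced ChIP libraries (chromosome 8, 11308182 to 11309256). It also held the list's only lost region, 11233951 to 11234803, whose lower score in uninduced EPC was 55.4.

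Cardiac genes showed both directions, 8 gained (10.0%) and 4 lost (5.00%) of 80 regions. Isl1, a factor of second heart field progenitors, had 2 adjoining gained regions (96.4 and 103.3, and 89.3 and 66.7 in induced EPC), and regions near Myocd (141.1 and 103.0) and Tbx20 (75.4 and 182.2) were gained. Gata4 lost a region inside the gene (102.4 and 50.0 in uninduced EPC), and lost regions lay 4.30 kb from Actc1 (76.2 and 116.5), 3.20 kb from Myl7 (109.3 and 50.4) and 36.7 kb from Hand1 (50.6 and 65.3). With equal-length lists the cardiac counts were 3 gained and 4 lost of 59. Early mesoderm genes had 1 gained, at Evx1, and 2 lost, at Gsc and Foxf1, of 39 regions.

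None of the 61 regions of blood genes was gained, and 1 was lost, at Cbfa2t3, a corepressor of blood progenitors, with no peak in induced EPC and 120.0 and 94.8 in uninduced EPC. Neural genes had 0 gained and 0 lost of 36 regions, and housekeeping genes 1 gained of 27, at Eef1a1. With equal-length lists 1 region each was gained at blood and neural genes. At the background rate, lists of this size hold few gained regions, so none of these low counts is a result about the list.

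Pluripotency genes had 7 gained of 46 regions (15.2%) and 2 lost. The strongest lay 24.7 kb from Dnmt3b, a DNA methyltransferase gene, at 307.9 and 354.9 in induced EPC and 612.9 and 433.6 in induced CPC, against 108.4 and no peak in uninduced CPC. It had peaks in 3 induced ChIP libraries. Wnt pathway genes had 8 gained of 70 (11.4%), among them Tcf7l1, a repressor of Wnt targets (264.8 and 196.8), and the ligand gene Wnt11 (186.3 and 236.1). BMP and TGF-beta genes had 6 of 95 (6.32%), led by Tgfbr2 (162.1 and 73.5), and Hippo genes 4 of 66 (6.06%), with lower scores of 52.2 to 69.7. Smooth muscle genes had 5 of 21 (23.8%), at Cnn1, Myh11, Mylk and Rgs5, with lower scores of 50.6 to 89.2. With equal-length lists, pluripotency genes had 4 gained and 2 lost of 38, Wnt genes 6 and 3 of 57, Hippo genes 0 and 1 of 55, and smooth muscle genes 2 and 1 of 16. BMP and TGF-beta genes had 2 gained and 5 lost of 76, which turns the direction, and no gained region at Tgfbr2. With full lists, the gained share at endoderm, pluripotency, cardiac and smooth muscle genes was thus above the 7.06% of all genes' regions. At early mesoderm genes it was 2.56%, and blood and neural genes had no gained region, but counts this low are no result about a list. Endoderm, pluripotency, cardiac and early mesoderm genes had lost regions too. The cardiac gained share with equal-length lists, 5.08%, was close to the 5.19% of all genes' regions. Whether the cells inside the gate differed was not tested.

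**Figure D3:**
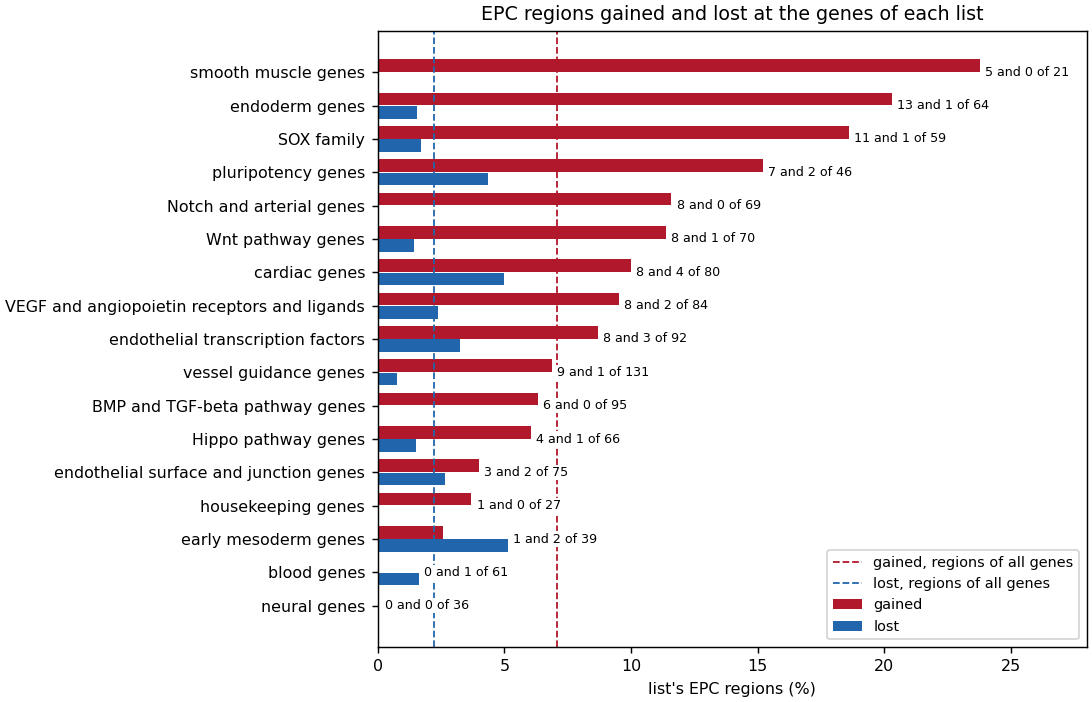
Share of each list's EPC regions that were gained (upper bar) and lost (lower bar), in percent, with the numbers beside the bars and dashed lines at the shares over the regions of all genes. Smooth muscle, endoderm and SOX genes have the highest gained shares, 23.8%, 20.3% and 18.6%, on 21, 64 and 59 regions.

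CPC libraries take no part in the rule and were read at the EPC regions as separate samples. Same-numbered uninduced EPC and CPC libraries had similar numbers of peaks (27934 and 27540 for replicate 1, 23694 and 23068 for replicate 2). Induced libraries did not keep a common order (28915 and 30732 in EPC, 29291 and 27979 in CPC). Whether the gates shared a culture or batch was not tested, so CPC lists may not be independent of EPC lists. Of the 3158 gained EPC regions, 47.1% (exact 95% interval 45.3 to 48.8) and 44.0% (42.3 to 45.8) had a peak in the induced CPC libraries, against 19.8% (18.4 to 21.2) and 14.2% (13.0 to 15.5) in the uninduced ones. The difference of 28.6 percentage points had the smallest two-sided exact permutation p that 2 against 2 libraries allow, 0.333 (adjusted p = 0.500 over 3 sets). With all EPC and CPC lists at equal length the shares were 42.5 and 43.5% in induced and 16.2 and 15.5% in uninduced CPC. At regions open in all 4 EPC libraries the shares were 88.9 and 88.0% in induced against 86.6 and 81.3% in uninduced CPC, which also did not overlap (p = 0.333, exact permutation test). Lost EPC regions had a peak in 23.3 and 22.4% in induced CPC and 33.1 and 22.6% in uninduced CPC; the difference of -4.98 points (exact permutation p = 0.667) rested on uninduced CPC replicate 1 and was 0.265 without it. Intervals cover counting error only.

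In all, 598 gained EPC regions (18.9%) were also gained in CPC, where 5.02% of all EPC regions were. Another 753 (23.8%) had a peak in at least 1 uninduced CPC library, so they were open in uninduced cells outside the EPC gate. Among all EPC regions the share with such a peak was higher, 57.5%. A further 1292 gained regions (40.9%) had no CPC peak in any library, a larger share than among all EPC regions (12092 of 40258). Only 31 lost EPC regions (3.29%) were also lost in CPC, where 1.14% of all EPC regions were.

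The share with an induced CPC peak climbed with the EPC score, while the share with an uninduced CPC peak did not. Gained regions with a lower induced EPC score of 50 to 60 had a peak in 37.4 and 36.0% in induced CPC, and in 22.0 and 16.2% in uninduced CPC. Those at 200 and above had one in 76.2 and 71.9% in induced CPC and in 14.4 and 7.50% in uninduced CPC, and the share gained in CPC too went with it, 9.90% at 50 to 60 and 50.6% at 200 and above. At regions open in all 4 EPC libraries, peaks of both states were more frequent at higher scores, 56.9 and 52.9% in induced and 57.4 and 45.2% in uninduced CPC at 50 to 60, and 96.6 and 96.4% in induced and 93.6 and 92.0% in uninduced CPC at 200 and above. The split by score was chosen after seeing the data and carries no test.

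**Figure D4:**
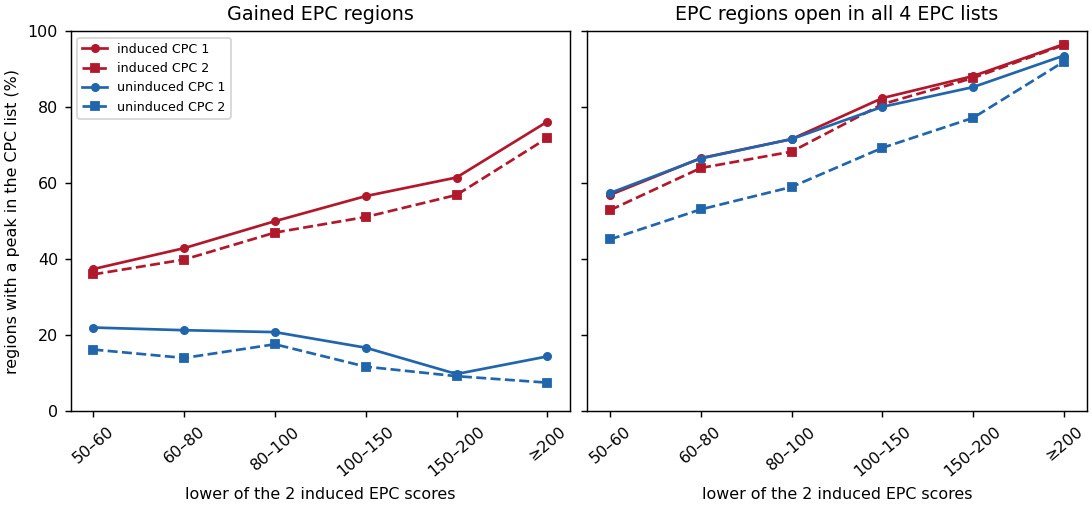
Share of EPC regions with a peak in each CPC list, in percent, by the lower of the 2 induced EPC scores, for gained regions (left) and regions open in all 4 EPC lists (right). At gained regions the induced lines (red) reach 76.2% and 71.9% while the uninduced lines (blue) end at 14.4% and 7.50%; at the other regions all 4 lines climb.

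Anti-Myc ChIP marks where the tagged Sox7 protein sits, here in unsorted EBs of the same age. The 4 induced ChIP libraries had a peak in 119, 76, 391 and 45 gained EPC regions (3.77, 2.41, 12.4 and 1.42%), and the uninduced ones in 9, 13 and 9 (0.285, 0.412 and 0.285%), against 9 in the input control. In uninduced ChIP lists 2 and 4, 75.8% of peaks of the shorter began at the same base, against at most 1.04% for any other pair, and both were counted as 1 sample. Means were 5.00 ± 5.02% (n = 4) in induced and 0.327 ± 0.0731% (n = 3) in uninduced libraries, and the groups did not overlap (two-sided exact permutation p = 0.0571, the smallest possible for 4 against 3; adjusted p = 0.0857). Induced replicate 3, the longest list, weighs most: the difference was 4.67 points, and 2.21 without it. With every ChIP list cut to 772 peaks, induced libraries had peaks in 1.33, 0.633, 2.60 and 0.728% of gained regions and uninduced ones in 0.222, 0.222 and 0.190%.

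Lost regions showed no such difference. Induced libraries had a ChIP peak in 20, 23, 25 and 23 of 943 lost regions, and uninduced libraries in 22, 23 and 26, with 19 in the input (2.41 ± 0.219% and 2.51 ± 0.221%, two-sided exact permutation p = 0.800). No lost region had a peak in 3 or 4 induced ChIP libraries and none of the uninduced ones, against 48 of 3158 gained regions and 95 of the 17349 regions open in all 4 EPC libraries. Among all 40258 EPC regions 197 had such peaks, and at that rate few would fall in 943 regions. At these open regions the induced ChIP libraries had 3.54, 2.92, 5.52 and 2.74% and the uninduced ones 2.25, 2.27 and 2.29% (exact permutation p = 0.0571).

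The share of gained regions with an induced ChIP peak was higher at higher EPC scores. In induced ChIP replicate 3, 5.43% of gained regions with a score of 50 to 60 had a peak, and 40.6% of those at 200 and above. Replicates 1, 2 and 4 had 1.38, 1.17 and 0.532% at 50 to 60, and 8.75, 6.88 and 5.62% at 200 and above, where no uninduced ChIP library had a peak in any of the 160 regions. At regions open in all 4 EPC libraries, replicate 3 had 1.94% at 50 to 60 and 7.10% at 200 and above. The 416 gained regions with an induced and no uninduced ChIP peak had a median lower score of 103.0, and 48.8% had a peak in both induced CPC libraries and 10.3% in an uninduced one. The 2725 gained regions with no ChIP peak had a median of 69.2, with 33.0% and 25.7%. Those with a ChIP peak lay within 1 kb of a gene boundary in 3.61% of cases, and those without in 10.4%. In total, 86.3% of gained regions (2725 of 3158) had no ChIP peak in these lists, whose depth is unknown. Among all EPC regions, 37927 of 40258 had none, so a ChIP peak was rarer there than at gained regions.

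**Figure D5:**
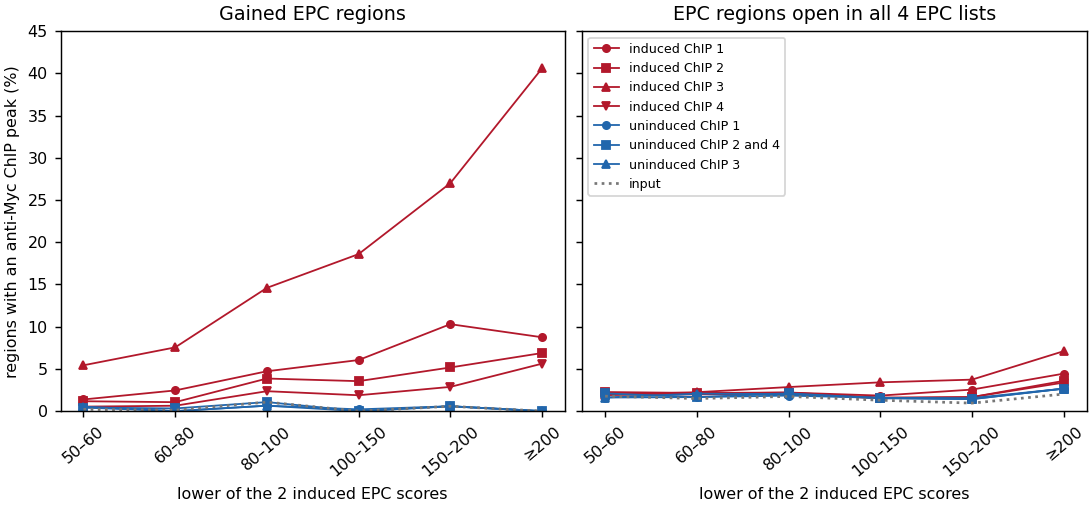
Share of EPC regions with an anti-Myc ChIP peak in each ChIP list, in percent, by the lower of the 2 induced EPC scores, for gained regions (left) and regions open in all 4 EPC lists (right). Induced replicate 3 reaches 40.6% of the gained regions at 200 and above, and the uninduced lists and the input stay near 0 at gained regions.

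The 15 gained regions with a peak in all 4 induced ChIP libraries and none of the uninduced ones were named after their values were seen. Among all 40258 EPC regions, 85 had such peaks. The strongest had no protein-coding gene within 50 kb (chromosome 11, 14181899 to 14182766), with 500.4 and 367.5 in induced EPC and 238.3 and 177.5 in induced CPC, and no peak in uninduced cells of either kind. Besides Sox13 and Col4a1, regions lay inside Pde11a, a phosphodiesterase gene (211.5 and 260.8 in induced EPC), Trak1, a mitochondrial transport adaptor (206.1 and 196.8), Kif28 (201.7 and 175.2), Btbd8 (142.4 and 193.9), Myof, a membrane-repair gene active in endothelium (80.9 and 163.2), and Pbx3, a homeodomain cofactor gene (123.6 and 79.3), and 0.861 kb from Pik3c2a (63.0 and 104.2). The other 5 had no gene within 50 kb. The Pbx3 region was the only one of the 15 with a peak in uninduced CPC, at 66.6 and 50.2.

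Promoters were a small part of the gained regions. Of 21262 RefSeq promoter windows of 300 bases (250 before and 50 after the start), 174 overlapped a gained region (0.818%), at 155 genes, and 51 a lost region (0.240%), while 10046 overlapped regions open in all 4. The highest-scoring gained promoter was that of Btbd17 (263.0 and 291.8 in induced EPC, and 186.6 and 106.8 in induced CPC, with no peak in uninduced cells). Frmd4a (220.9 and 307.2), Sall2 (209.3 and 253.7), Slc26a10 (272.1 and 161.3), Myt1 (208.5 and 155.8), Plekhg5 (194.9 and 142.3) and Sox1 followed. Of these, only the Frmd4a promoter had peaks in uninduced CPC, at 80.9 and 53.6, with 129.9 and 90.0 in induced CPC. Tfpi, the endothelial inhibitor of tissue factor, whose promoter is printed above, had 158.6 and 195.5 in induced EPC with no peak in uninduced EPC, but 290.9 and 223.7 in induced and 205.6 and 108.6 in uninduced CPC, so in CPC it was open without induction. Cnn1, the smooth muscle calponin, had 113.9 and 74.0, and Lamb1, a laminin chain, 119.3 and 133.2. With equal-length lists Cnn1 had no gained region. Both promoters also had a peak in uninduced CPC replicate 1, at 52.8 for Cnn1 and 65.4 for Lamb1.

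AACAAT or ACAAAG, on either strand, was found in 23.0% of gained windows (40 of 174) and 25.5% of lost windows, against 16.3% of windows open in all 4 libraries and 24.0% of all windows. The SOX dimer word, ACAAT and ATTGT with 4 bases between them, was in 0 of 174 gained windows and in 4 of all windows. CCGGAA, an ETS word, was in 12.6% of gained and 13.7% of lost windows, against 30.5% of windows open in all 4 and 18.7% of all. AGATAA, a word that GATA factors bind, was in 6.90% of gained and 11.8% of lost windows, against 9.65% of all. CAGCTG, an E-box, was in 14.4% of gained and 27.5% of the 51 lost windows, against 15.6% of all, and TGANTCA, the AP-1 word, in 6.90% and 17.6%, against 6.99% of all. Among these words the gap between gained and all windows was widest for CCGGAA. A match is only a run of letters, and the sequence of the gained regions away from promoters was not used here.

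The authors' deposited list of EPC regions holds 3267 entries. Each lies within a peak of induced replicate 1 and carries its score, each overlaps a peak of induced replicate 2, and none overlaps a peak of either uninduced library. It covers all 3158 regions gained here, with 3169 of its entries inside them; the other 98 lie in merged regions that an uninduced peak touches elsewhere.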

How the data were processed

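ATAC-seq peaks of 4 EPC and 4 CPC libraries, and 8 anti-Myc ChIP-seq lists with 1 input, were used; the RNA-seq samples were not analysed here. Per the submitters' processing notes, the tools named, with no role, include Bowtie2, Trimmomatic, SAMtools, bedtools and MACS 1.4, on mm10 (GRCm38). The score of each peak was deposited by the authors and follows the MACS 1.4 format. From the authors' list of sites that Sox7 occupies, only start and end positions were used. The ATAC-seq library protocol is not given in the sources used here. Python 3.11.15, numpy 2.4.6, pandas 2.3.3 and SciPy 1.17.1 were used. Peaks were merged at 1 bp of overlap. A region was assigned to each RefSeq protein-coding gene (GRCm38.p6) it overlapped, otherwise to the nearest within 50 kb; exons and introns were not used. RefSeq promoter windows were found for 17491 genes, and 4392 protein-coding genes had none. Two-sided exact permutation tests with Benjamini-Hochberg adjustment compared the values per library. No region has a test of its own. Replicates are not stated to be separate cultures, so a p-value reflects only how these samples vary, possibly for technical reasons. Same-numbered libraries did not deviate together (r = 0.02 over 17349 regions), so replicate numbers were not taken to pair samples. The regions, gene lists and tests were chosen with earlier results of these data known. Named genes were Sox7, Kdr, Pdgfra, those of the 12 highest-scoring gained and lost regions, the 8 and 5 genes with the most gained and lost regions, list members with either, and the 8 highest-scoring gained promoters; the 15 regions with 4 ChIP peaks were added later. Some genes that this rule names are not reported here. The code was tested on simulated data.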

Additional observations from a re-analysis of the deposited data

How the results depend on the processing

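Counts of gained and lost EPC regions depended on the presence rule more than on merging. They were 1947 and 1363 with equal-length lists, 1786 and 423 at a score of 100 in every list, and 813 and 69 when presence needed a score of 100 and any peak ended absence. The 3 settings of merging gave 3103 to 3139 gained and 910 to 935 lost. Ranks, added after seeing the data, gave 5 and 0 in the 5000, 72 and 4 in the 10000, and 401 and 120 in the 15000 highest-ranked peaks. Leaving out 1 library, which relaxes the rule unevenly for the 2 directions, gave 3926 to 7199 gained and 1650 to 4100 lost. Replicate numbers gave no pairing of the samples. As a replicate block, both pairs together give 3158 and 943 by construction, pair 1 alone 6922 and 6097, and pair 2 alone 10696 and 3411; the blocked difference in ChIP share had an exact p of 0.125 and those in CPC share 0.500. The difference in median peak width, -6.00 bp, ran from -45.0 to 33.0 when 1 library was left out (9.00 without induced replicate 1 and 33.0 without uninduced replicate 1). The difference in CPC share at lost regions ran from -10.2 to 0.265 points. With all 4 uninduced ChIP lists counted, the ChIP difference at gained regions was 4.69 points (exact permutation p = 0.0286). Gained promoters numbered 104 with equal-length lists. The cause of these shifts was not tested. Read depth is unknown, so a missing peak may be a shallow library.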
